A study of Mus musculus with 9 samples.

Results

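Distal mouse chromosome 2 carries a dense cluster of zinc-finger genes, and 6 of them are described here across the hypothalamus of Clic1 knockout (KO) and wild-type (WT) mice. The members are Gm14393, Gm14443, Gm14434, Gm2026, Gm14410 and Gm14403, 6 of the 14351 genes of the expression table. They were chosen on the difference between the KO and WT libraries, so their differences between genotypes are given as a description, with no test. RNA was measured by sequencing in 9 hypothalamus libraries, 5 of KO mice and 4 of WT mice. Values per library follow 1 order throughout, which is replicates 2, 4, 6, 8 and 10 for KO and replicates 1, 3, 9 and 11 for WT. Both groups were male and ate normal chow, and the age is not given in the sources used here. The KO removes Clic1, a chloride intracellular channel protein, from the whole body, and the WT mice were littermates. The study's methods place the line on a CD-1 background and say it came from another laboratory, whereas the labels give the strain as C57b/6J. How many litters or founders stand behind each genotype is not given in the sources used here. The labels treat each library as a separate sample of its genotype. Spreads and p-values therefore describe the variation among these samples, which may be partly technical.

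Replicate 10 carries conflicting labels. Its title and treatment label call it WT, whereas its library name and column name place it with the KO mice, and it was analysed as KO. Clic1, on chromosome 17, checks this from the side of the targeted gene. The normalized CPM (read counts scaled to library size) of Clic1 was 1.93, 1.32, 0.733, 1.25 and 1.43 across the KO libraries. In the WT libraries it was 5.52, 4.66, 5.30 and 3.58. The library of replicate 10 thus sat inside the range of the other KO libraries. The log2 difference of Clic1, KO minus WT, was -1.80 (SE 0.27, adjusted p = 0.0153 by limma, a linear model fitted to all genes), and the groups did not overlap. With each library left out the adjusted p by limma ran from 0.00494 to 0.0893, and the call was lost without WT replicate 1, 3 or 9 (0.0893, 0.0826 and 0.0702).

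The C2H2 zinc-finger proteins form the largest family of transcription factors in mammals, and many of them begin with a KRAB domain. A row of fingers reads DNA, often in transposable elements, and the KRAB domain recruits the co-repressor Trim28 (KAP1), which in turn brings the histone methyltransferase Setdb1. Such genes arise by tandem duplication and sit in clusters of close copies, which makes short reads hard to assign to a single copy. The targets of the 6 genes described here are not known from these data.

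Each member encodes a run of C2H2 fingers. In coding sequences of the GENCODE annotation, translated and searched for the spacing of a C2H2 finger, Gm14393 had 18 motifs in 610 residues and Gm14443 had 16 in 610. Gm14434 and Gm2026 each had 13 in 498 residues, Gm14410 had 9 in 370 and Gm14403 had 9 in 402. A single finger shows how alike they are. The 84 bases below (28 codons, counted from the first cysteine codon of a finger) are the earliest of 6 fingers that aligned without a gap in all 6 coding sequences. They were read from GENCODE transcripts on build GRCm38, and capitals mark bases that differ from Gm2026.
Gm14393 (chr2:175131481-175131564, minus strand): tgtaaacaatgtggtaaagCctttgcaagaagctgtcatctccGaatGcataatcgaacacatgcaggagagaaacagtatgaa
Gm14443 (chr2:175170172-175170255, minus strand): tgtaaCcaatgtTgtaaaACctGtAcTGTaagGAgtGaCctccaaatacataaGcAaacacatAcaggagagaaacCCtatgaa
Gm14434 (chr2:175325760-175325843, minus strand): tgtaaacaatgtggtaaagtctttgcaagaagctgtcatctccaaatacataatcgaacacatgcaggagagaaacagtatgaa
Gm2026 (chr2:175977724-175977807, plus strand): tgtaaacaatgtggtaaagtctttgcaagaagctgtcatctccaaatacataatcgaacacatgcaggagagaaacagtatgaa
Gm14410 (chr2:177193990-177194073, minus strand): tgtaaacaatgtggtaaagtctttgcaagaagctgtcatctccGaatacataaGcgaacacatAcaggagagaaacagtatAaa
Gm14403 (chr2:177508659-177508742, plus strand): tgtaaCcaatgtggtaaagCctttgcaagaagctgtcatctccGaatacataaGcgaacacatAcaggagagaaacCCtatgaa
Gm14434 had 0 differences from Gm2026 here, Gm14393 had 3, Gm14410 had 4, Gm14403 had 7 and Gm14443 had 18. Over the whole aligned coding sequence, Gm14434 and Gm2026 were 100% identical over 1494 bases, Gm14410 was 98.6% identical to each of them over 1110 bases, and Gm14443 was the most distant, at 85.5% to 87.6% identity with the other 5.

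The sequence before the start site was also shared. RefSeq start sites on GRCm38.p6 were matched by strand and place for 4 of the 6 members, Gm14434, Gm2026, Gm14410 and Gm14403. The 250 bases before each start are printed for these 4, which are also the members that were higher in KO. No start was matched for Gm14393 and Gm14443, so their upstream sequence was not examined. Whether the shared sequence goes with the direction of change therefore cannot be told. Capitals mark the longest stretch held by all 4, which spans 73 bases.
Gm14434 (chr2:175338222-175338471, minus strand): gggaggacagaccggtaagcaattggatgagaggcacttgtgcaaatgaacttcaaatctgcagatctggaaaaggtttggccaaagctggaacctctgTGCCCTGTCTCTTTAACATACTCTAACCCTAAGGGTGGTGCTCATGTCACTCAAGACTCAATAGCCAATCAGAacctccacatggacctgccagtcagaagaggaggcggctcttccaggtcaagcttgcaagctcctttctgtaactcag
Gm2026 (chr2:175965105-175965354, plus strand): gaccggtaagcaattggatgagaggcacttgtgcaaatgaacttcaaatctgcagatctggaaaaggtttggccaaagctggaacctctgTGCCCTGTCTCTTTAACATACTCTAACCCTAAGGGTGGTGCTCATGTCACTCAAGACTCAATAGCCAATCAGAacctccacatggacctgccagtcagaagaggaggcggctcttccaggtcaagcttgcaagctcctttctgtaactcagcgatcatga
Gm14410 (chr2:177206497-177206746, minus strand): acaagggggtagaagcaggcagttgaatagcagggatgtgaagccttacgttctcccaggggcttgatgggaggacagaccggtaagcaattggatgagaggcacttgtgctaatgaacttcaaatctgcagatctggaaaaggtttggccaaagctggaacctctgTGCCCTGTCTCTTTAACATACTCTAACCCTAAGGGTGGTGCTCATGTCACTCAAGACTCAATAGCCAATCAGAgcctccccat
Gm14403 (chr2:177497976-177498225, plus strand): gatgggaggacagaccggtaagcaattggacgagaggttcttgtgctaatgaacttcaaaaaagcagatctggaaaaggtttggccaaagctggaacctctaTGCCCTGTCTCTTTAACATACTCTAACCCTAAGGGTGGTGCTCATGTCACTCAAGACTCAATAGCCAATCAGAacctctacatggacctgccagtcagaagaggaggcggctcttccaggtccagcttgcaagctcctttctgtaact
The stretch ended 78, 87, 10 and 75 bases before the matched start in Gm14434, Gm2026, Gm14410 and Gm14403. The matched start is the RefSeq start nearest to the GENCODE start of each row, so these distances depend on that choice. The RefSeq gene Gm2026 as a whole begins at chr2:175965250, inside its stretch. The stretch is thus not wholly upstream of every RefSeq start of Gm2026. Local alignments of these upstream sequences were 100% identical over 241 bases for Gm14434 and Gm2026, and 95.6% to 98.4% identical over 173 to 247 bases for the other 5 pairs. On both strands, the 73 bases occurred in 14 of 32851 RefSeq upstream windows of the same length (0.0426%), and all 14 lay in the cluster, before 12 genes. They occurred before 9 of the 21 zinc-finger genes of the cluster that had a matched start. These 21 include the 4 members, from which the stretch was taken, and are not the 21 other genes described below. The letters CCAAT, a common promoter box that lies inside the stretch, occurred on either strand in 4 of 4 members, in 21 of 21 matched genes of the cluster and in 33.8% of all windows. The letters TATAAA occurred in 0 of 4 members, in 0 of 21 cluster genes and in 12.4% of all windows. These matches describe letters and not binding.

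The members spread over 2.38 Mb. From the centromere outward they were Gm14393 (chr2:175129493-175142012, minus strand), Gm14443 (chr2:175166255-175175871, minus), Gm14434 (chr2:175321955-175338197, minus), Gm2026 (chr2:175965331-175980303, plus), Gm14410 (chr2:177183453-177206421, minus) and Gm14403 (chr2:177498215-177509763, plus), all protein-coding genes on GRCm38. Gm14393 and Gm14443 were 24.2 kb apart. The next gaps were 146 kb to Gm14434, 627 kb to Gm2026, 1203 kb to Gm14410 and 292 kb to Gm14403. Within 1 Mb on each side of the outermost members, the table held 44 genes, of which 27 had 3 or more finger motifs. These 27 are the 6 members and 21 others, and they are called the cluster below.

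Names in this cluster need care, because a symbol does not always lead to the same gene. The row that the deposited annotation calls Gm14434 has the identifier ENSMUSG00000078899, which GENCODE names Gm4631. The gene RefSeq calls Gm14434 (chr2:176470369-176486853) lies 1.13 Mb away from that row. The row called Gm14393 has the identifier ENSMUSG00000090093, which GENCODE names Gm14399, although the RefSeq gene Gm14393 (chr2:175057954-175150705) overlaps it. Gm14443 and Gm14403 carried no symbol in the deposited annotation and are named here from GENCODE. Of the 44 genes of the window, 5 had different symbols in both sources, 32 had the same one and 7 had none in the deposited annotation. Positions and sequences given here belong to the identifier of each row.

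The 2 most centromeric members were lower in KO, and the 4 others were higher. Among all 14351 genes, 41 passed an adjusted p under 0.05 (0.286%), 20 of them higher (0.139%) and 21 lower (0.146%) in KO. KO libraries lay wholly above WT libraries in 1.67% of all genes and wholly below in 1.74%. All 6 members passed this threshold without overlap between genotypes, which is what they were chosen on, so nothing is read from that count. The count also moved, to 1 of 6 with replicate 10 counted as WT and to 3 of 6 without WT replicate 1. In whole-tissue RNA, fewer cells expressing a gene and less RNA per cell cannot be told apart.

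**Figure D1:**
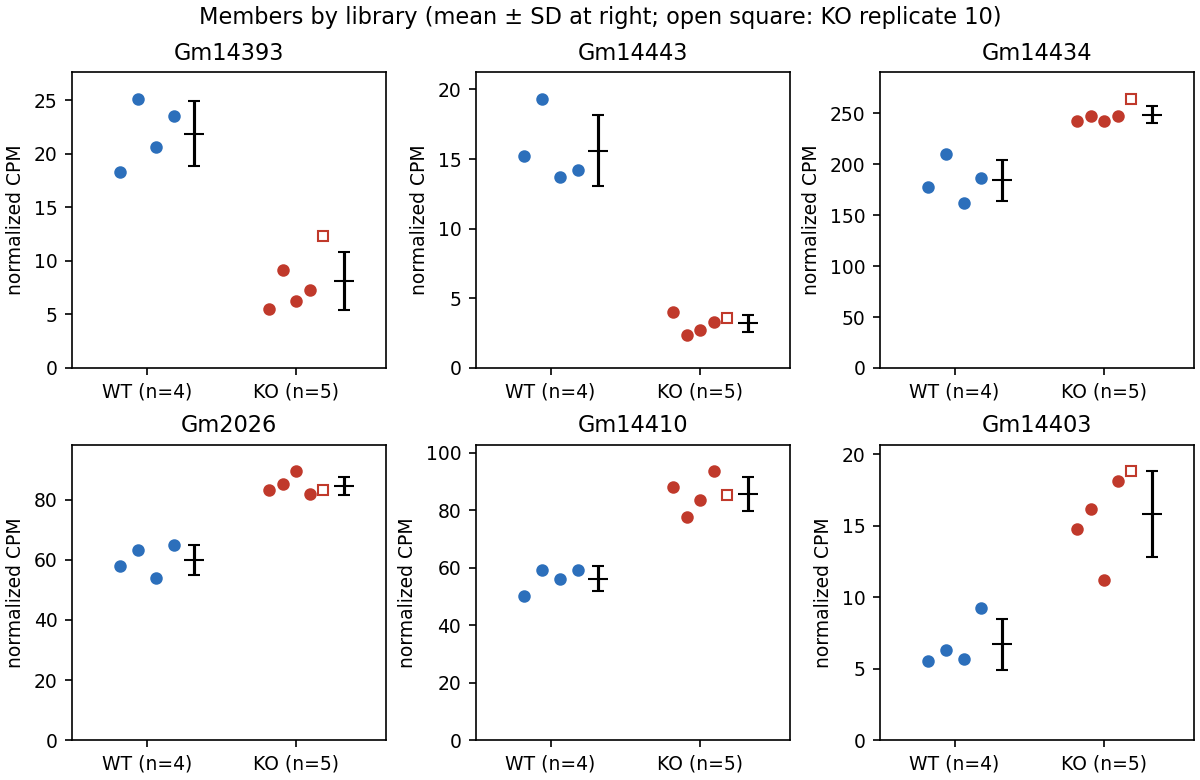
Normalized CPM (y axis, from 0) of each member in the 4 WT and 5 KO libraries. Points are libraries, the open square is KO replicate 10, and the bar at the right of each group is the mean ± SD. Gm14393 and Gm14443 lie lower in KO, the other 4 higher, and no panel has overlapping groups.

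Gm14443 differed most. It measured 3.99, 2.37, 2.75, 3.28 and 3.56 CPM across the KO libraries. The WT libraries gave 15.2, 19.3, 13.7 and 14.2 CPM. The highest KO library was under the lowest WT library by a wide margin, and replicate 10 sat within the other KO values. The KO mean was 3.19 ± 0.643 (SD, n = 5) beside a WT mean of 15.6 ± 2.53 (SD, n = 4), a log2 difference of -2.26 (SE 0.18), or 4.80-fold lower on the log2(CPM + 0.1) scale.

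Its neighbour Gm14393 was lower in KO as well. It measured 5.54, 9.10, 6.24, 7.28 and 12.3 CPM across the KO libraries. In WT the values were 18.3, 25.1, 20.6 and 23.5 CPM. Replicate 10 was the KO library nearest to WT, and still below each WT library. On average KO libraries held 8.09 ± 2.69 CPM (SD, n = 5) beside 21.9 ± 3.02 CPM (SD, n = 4) in WT, a log2 difference of -1.47 (SE 0.21), or 2.77-fold lower. Without replicate 10 the difference was -1.64. The KO coefficient of variation of Gm14393, 33.3%, was above the median of 15.1% for 2587 genes of like level.

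Gm14434, the member with the highest CPM before scaling to length, was modestly higher in KO. It measured 243, 247, 243, 247 and 264 CPM across the KO libraries. The WT libraries gave 178, 210, 162 and 187 CPM. The KO libraries were almost level, with a coefficient of variation of 3.55%, although replicate 10 stood above the rest. The KO mean was 249 ± 8.83 (SD, n = 5) beside a WT mean of 184 ± 20.3 (SD, n = 4), a log2 difference of 0.44 (SE 0.07), or 1.36-fold higher.

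Gm2026, whose coding sequence matches that of Gm14434, showed a difference of like size. It measured 83.1, 85.2, 89.4, 82 and 83.2 CPM across the KO libraries. WT mice had 57.8, 63.2, 53.8 and 64.9 CPM. The KO libraries were again close together, and WT replicate 9 was lowest in both genes. On average KO libraries held 84.6 ± 2.94 CPM (SD, n = 5) beside 59.9 ± 5.07 CPM (SD, n = 4) in WT, a log2 difference of 0.50 (SE 0.07), or 1.41-fold higher.

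Gm14410, with the fewest residues, was also higher. It measured 88.1, 77.5, 83.7, 93.5 and 85.3 CPM across the KO libraries. The WT libraries gave 50.1, 59.1, 56.2 and 59.2 CPM. The lowest KO library, replicate 4, was above each WT library. The KO mean was 85.6 ± 5.86 (SD, n = 5) beside a WT mean of 56.2 ± 4.26 (SD, n = 4), a log2 difference of 0.61 (SE 0.08), or 1.52-fold higher.

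Gm14403, the member farthest from the centromere, had the largest difference upward. It measured 14.8, 16.2, 11.2, 18.1 and 18.8 CPM across the KO libraries. Among WT libraries the values were 5.51, 6.29, 5.70 and 9.27 CPM. KO replicate 6 and WT replicate 11 approached each other without meeting. On average KO libraries held 15.8 ± 3.02 CPM (SD, n = 5) beside 6.70 ± 1.75 CPM (SD, n = 4) in WT, a log2 difference of 1.24 (SE 0.19), or 2.36-fold higher.

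The placement of replicate 10 changed sizes but no direction. With replicate 10 counted as WT, as its title says, the log2 differences were -1.89 for Gm14443, -1.47 for Gm14393, 0.31 for Gm14434, 0.41 for Gm2026, 0.49 for Gm14410 and 0.87 for Gm14403. Without it they were -2.31, -1.64, 0.42, 0.51, 0.61 and 1.17 in the same order. When each library was left out in turn, the log2 differences stayed within -2.35 to -2.16 for Gm14443, -1.64 to -1.35 for Gm14393, 0.38 to 0.51 for Gm14434, 0.45 to 0.54 for Gm2026, 0.55 to 0.64 for Gm14410 and 1.16 to 1.40 for Gm14403.

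Levels between genes were compared per kb of the longest annotated transcript. In WT, the CPM per kb was 50.5 ± 3.83 (SD, n = 4) for Gm14410, 41.8 ± 4.61 for Gm14434, 37.0 ± 3.13 for Gm2026, 11.4 ± 1.58 for Gm14393, 5.54 ± 1.45 for Gm14403 and 3.45 ± 0.561 for Gm14443. The libraries of Gm14410 and Gm14434 overlapped on this scale, and so did those of Gm14434 and Gm2026, whereas the other neighbours in this order did not. In KO, the CPM per kb was 76.9 ± 5.26 (SD, n = 5) for Gm14410, 56.5 ± 2.01 for Gm14434, 52.2 ± 1.81 for Gm2026, 13.1 ± 2.5 for Gm14403, 4.23 ± 1.41 for Gm14393 and 0.707 ± 0.142 for Gm14443. Gm14393 and Gm14403 thus changed places between genotypes, and in KO only Gm14434 and Gm2026 still overlapped. The longest annotated transcripts of Gm14410 (1.11 kb) and Gm14403 (1.21 kb) hold coding sequence only. Those of Gm2026 (1.62 kb) and Gm14393 (1.91 kb) hold little more than coding sequence. Levels per kb of these genes therefore read high beside those of Gm14434 (4.40 kb) and Gm14443 (4.52 kb), whose transcripts hold much sequence outside the coding part.

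The summed RNA of the members was higher in KO, and Gm14434, Gm2026 and Gm14410 made up most of it. The sum over the 6 members was 438, 437, 437, 451 and 467 CPM across the KO libraries. In the WT libraries it was 325, 383, 311 and 358 CPM. The KO mean was 446 ± 13.4 (SD, n = 5) beside a WT mean of 344 ± 32.4 (SD, n = 4), a log2 difference of 0.38 (SE 0.06), and 0.36 without replicate 10. Gm14434 made up 55.8% of the sum in KO and 53.4% in WT on average. The 2 lower members together made 11.3 ± 2.72 CPM (SD, n = 5) of KO RNA beside 37.5 ± 4.94 CPM (SD, n = 4) of WT RNA, a log2 difference of -1.74 (SE 0.18), and the 4 higher members 435 ± 11.1 and 307 ± 27.8 CPM, a log2 difference of 0.51 (SE 0.06). The share of Gm14393 in the sum was 1.80% in KO and 6.34% in WT, and that of Gm14443 was 0.715% and 4.52%.

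**Figure D2:**
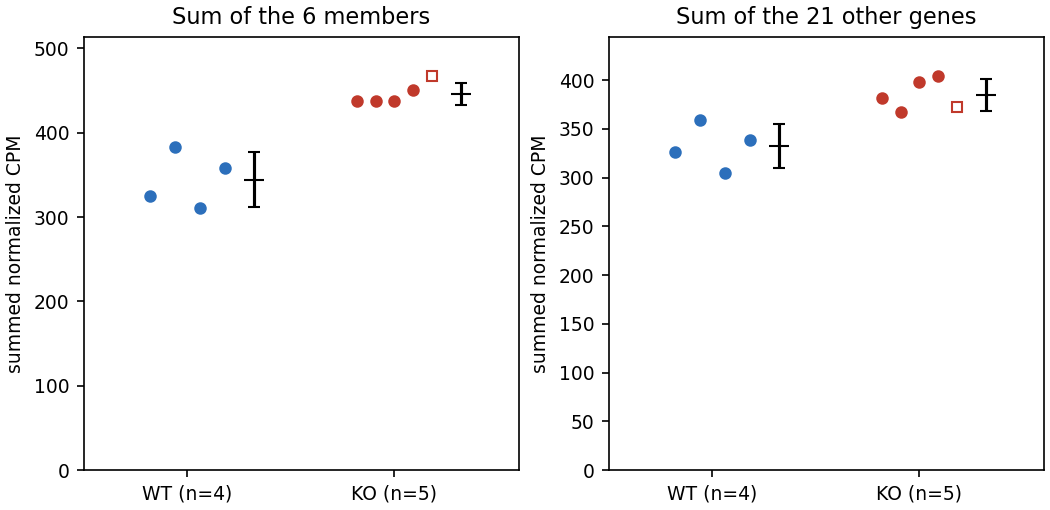
Summed normalized CPM (y axis, from 0) of the 6 members (left) and of the 21 other zinc-finger genes of the cluster (right), per library. The open square is KO replicate 10 and the bars are the mean ± SD. Both sums are higher in each KO library than in each WT library, by a log2 difference of 0.38 and 0.21.

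The rest of the cluster gives the setting. Of the 21 other zinc-finger genes, 0 passed an adjusted p under 0.05 by limma with a trend or by limma-voom on estimated counts, which follows from how the members were chosen and is no result about them. At an unadjusted p under 0.05, 6 of 21 were higher in KO and 0 lower, or 28.6%, where 3.44% of all genes were higher at that level and 6.50% differed in either direction. By sign, 15 of the 21 had a positive and 6 a negative log2 difference, with a median of 0.09, against a median of 0.00 over all genes. The sum of the 21 was 382, 367, 398, 404 and 372 CPM across the KO libraries. In the WT libraries it was 326, 359, 305 and 339 CPM. The groups did not overlap, although the lowest KO and the highest WT library were close. The log2 difference of this sum was 0.21 (SE 0.05), and 0.23 without replicate 10. The 21 genes are not independent of the members or of each other. Of the 6 higher at the unadjusted level, Gm14308, Gm14325 and Gm14391 have transcripts at least 95% identical to those of a member. Zfp966 and the gene that GENCODE names Zfp967 share transcript sequence with each other. The part of shared reads in these counts and in the sum was not tested.

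The gene just outside the threshold was Zfp970, between Gm14410 and Gm14403. It ranged from 17.0 to 29.7 CPM in KO against 9.53 to 14.2 CPM in WT, without overlap, a log2 difference of 0.87 (SE 0.17). The member just inside was Gm14434, with 0.44 (SE 0.07). The identifier that GENCODE names Zfp967, which the deposited annotation lists as a second Zfp968, ranged from 5.24 to 17.9 CPM in KO against 3.09 to 4.83 CPM in WT, a log2 difference of 1.29 (SE 0.29). Replicate 10 was its highest library, and the other KO libraries reached 9.33 CPM at most. None of the 75-base windows of its transcript is its own (0% unique), and all of them (100%) also occur in Zfp968 and in Zfp966, so its value cannot be told apart from theirs. The sum over the 8 near-identical genes that include these 3 was 78.0 to 94.6 CPM in KO against 76.5 to 90.0 CPM in WT, with overlap, and its log2 difference was 0.08 (SE 0.08).

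By CPM, which is not scaled to length, the 3 highest cluster genes outside the members were Gm14391, Gm14432 and Zfp966. Gm14391, which lies between Gm14443 and Gm14434, ranged from 73.8 to 101 CPM in KO against 55.1 to 74.4 CPM in WT, a log2 difference of 0.39 (SE 0.11) with overlap. Gm14432 (Gm14305 in GENCODE) ranged from 33.4 to 41.7 CPM in KO against 38.3 to 44.6 CPM in WT, a log2 difference of -0.12 (SE 0.09). Zfp966 ranged from 30.2 to 41.4 CPM in KO against 26.0 to 33.8 CPM in WT, a log2 difference of 0.38 (SE 0.11) with overlap through replicate 10. Without replicate 10, 4 of the 21 passed the threshold by limma, all higher in KO, while the calls over all 14351 genes went from 41 to 87 (49 higher and 38 lower). These were Gm14391 (log2 0.46, SE 0.09, adjusted p = 0.0239), Zfp966 (log2 0.47, SE 0.09, adjusted p = 0.0178), Zfp967 (log2 1.04, SE 0.21, adjusted p = 0.0369) and Zfp970 (log2 0.75, SE 0.14, adjusted p = 0.0168). Zfp966 and Zfp967 are not separate evidence, since 14.9% and 0% of their windows are unique, and the sum of their 8 near-identical genes had a log2 difference of 0.10 without replicate 10.

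**Figure D3:**
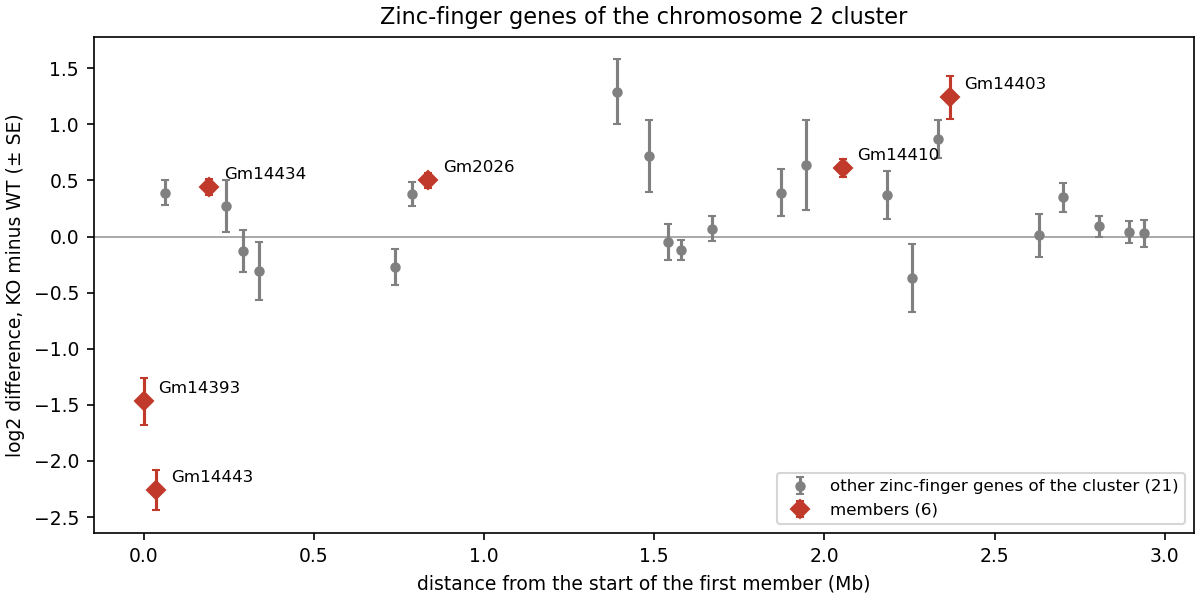
Log2 difference, KO minus WT (y axis, ± SE), of the 27 zinc-finger genes of the cluster by distance in Mb from the start of Gm14393 (x axis). Red diamonds are the members and grey points the 21 others. The 2 members at the left lie at -1.47 and -2.26, and the other 4 between 0.44 and 1.24, among others that mostly lie above 0.

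The remaining 17 genes of the window have fewer than 3 finger motifs. By limma with a trend and by limma-voom, 0 of 17 passed an adjusted p under 0.05, and 1 (Gm14288) was lower at an unadjusted p under 0.05. Their median log2 difference was -0.03. Gnas, the imprinted gene at the centromeric edge of the window, ranged from 1677 to 2231 CPM in KO against 1698 to 1841 CPM in WT (log2 0.05, SE 0.08). Phactr3, beyond the distal end of the members, measured 93.8 to 138 CPM and 94.8 to 103 CPM (log2 0.09, SE 0.11).

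A pair among them shares nearly all of its transcript sequence. Gm14288 and Gm14440 share 3382 bases of transcript at 100% identity. Gm14440 measured 12.7, 11.3 and 8.77 CPM in KO replicates 2, 8 and 10 and is listed at 0 in KO replicates 4 and 6. Gm14288 measured 15.0 and 15.2 CPM in KO replicates 4 and 6, with 0.00644 CPM in replicate 2 and 2.64 CPM in replicate 10, and is listed at 0 in replicate 8. Each gene, taken singly, was thus listed near 0 in some libraries of a genotype and not in others. Reads that fit both genes were divided between them, so a value near 0 does not show that the gene was unexpressed in that mouse. The WT libraries gave 9.29, 25.2, 20.5 and 18.5 CPM for Gm14288 and 11.6, 3.43, 0 and 5.89 CPM for Gm14440. Their sum was steadier. It was 12.7, 15.0, 15.2, 11.3 and 11.4 CPM across the KO libraries and 20.9, 28.6, 20.5 and 24.3 CPM across the WT libraries. On average KO libraries held 13.1 ± 1.90 CPM (SD, n = 5) beside 23.6 ± 3.76 CPM (SD, n = 4) in WT, a log2 difference of -0.84 (SE 0.14) without overlap. Both genes also belong to the group of 8 near-identical genes that holds Zfp966 and Zfp967. The sum of that group overlapped between genotypes (log2 0.08, SE 0.08). The part of read division among those 8 genes in the difference of the pair was not tested. The pair was chosen after its values were seen, so no test is given.

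**Figure D4:**
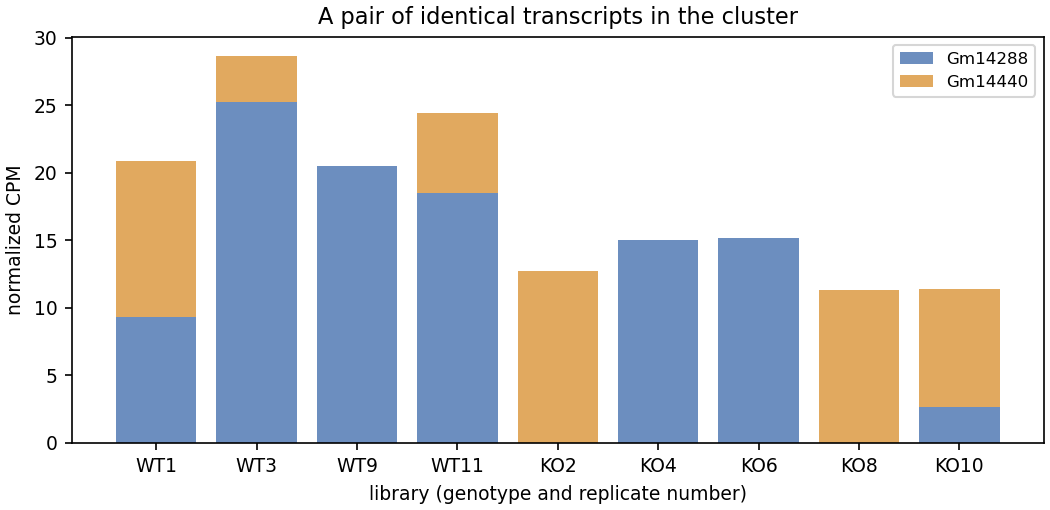
Normalized CPM (y axis) of Gm14288 (blue) and Gm14440 (orange), stacked, in each library (x axis, genotype and replicate number). The division between the genes swings from library to library, whereas the stacked height is 11.3 to 15.2 in KO and 20.5 to 28.6 in WT.

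How much of each member could be read apart from its copies was measured on the annotation. The share of a gene's 75-base transcript windows that occur in no other gene was 96.3% for Gm14443 and 84.3% for Gm14403. It was 59.5% for Gm14434, 47.1% for Gm14393, 19.6% for Gm14410 and 3.19% for Gm2026. Over the 21 other genes it ran from 0 to 90.9%, with a median of 24.0%. With 100-base windows the shares were 99.2%, 95.1%, 61.4%, 56.5%, 24.8% and 4.84% in the same order of genes. The 2 members with the largest differences in each direction, Gm14443 and Gm14403, were thus also those with the most sequence of their own.

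**Figure D5:**
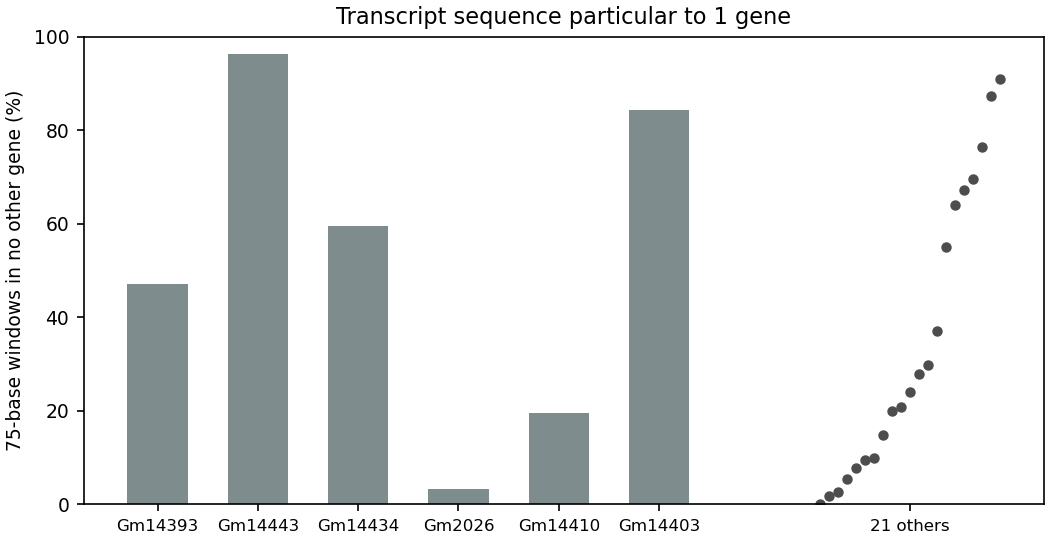
Share of 75-base transcript windows that occur in no other annotated gene (y axis, %), as bars for the 6 members and as points for the 21 other zinc-finger genes of the cluster, sorted. Gm14443 and Gm14403 stand at 96.3% and 84.3% and Gm2026 at 3.19%.

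The shared windows name the copies that are hard to separate. Gm2026 shared 88.5% of its windows with the gene that GENCODE itself calls Gm14434 (ENSMUSG00000078881), a gene not analysed here. Gm14410 shared 68.2% with Gm14308, Gm14393 shared 40.1% with Gm14326, and Gm14434 shared 39.3% with Gm2026. Transcripts at least 95% identical over at least 30% of the shorter were found for Gm14410 (9 measured genes), Gm2026 (9) and Gm14434 (7), and for none of Gm14393, Gm14443 and Gm14403. By aligned coding sequence without gaps, however, Gm14393 was 95.4% identical to Gm14434 and to Gm2026 over 1494 bases. It was 97.5% identical to Gm14410 over 1110 bases. The closest partners of Gm14434 were Gm2026, Gm14308 and Gm4724, at 100% identity over 1497 to 1614 bases, then Gm14432 (99.5%), Gm14410 (98.5%), Gm14325 (95.5%) and Gm14326 (95%). Of these partners, Gm4724 ranged from 8.21 to 18.3 CPM in KO against 12.6 to 14.2 CPM in WT, and Gm14308 measured 3.14 to 8.0 CPM and 1.78 to 3.86 CPM. Gm14325 ranged from 24.2 to 34.0 CPM in KO against 19.3 to 27 CPM in WT, and Gm14326 measured 25.6 to 31.3 CPM and 25.5 to 29.6 CPM. Gm2026 and Gm14410 had as further partners Gm6710, with 18.1 to 27 CPM in KO against 23.0 to 35.2 CPM in WT, with Gm14295 (10.5 to 12.7 CPM and 10.3 to 12.5 CPM) for Gm2026 and Gm14391 for Gm14410.

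A sum over near-identical genes does not depend on how reads were divided among the genes summed. It can still depend on reads divided with copies not analysed here, such as ENSMUSG00000078881, which holds 88.5% of the windows of Gm2026. The group that links Gm14434, Gm2026 and Gm14410 through such partners held 12 genes. Its sum was 678, 645, 678, 687 and 670 CPM across the KO libraries. In the WT libraries it was 517, 582, 478 and 537 CPM. The groups did not overlap, and the log2 difference was 0.35 (SE 0.05), smaller than those of the 3 members singly. These 3 members were chosen on this contrast and make up much of the sum, so no sum that holds them is a test of it. When genes sharing at least 30% of the windows of either were summed, Gm14393 fell into 1 group of 13 genes with these 3, and the sum had a log2 difference of 0.32 (SE 0.05). The direction of Gm14393 cannot be seen in that sum, since the other genes in it make up most of its RNA. Gm14443 and Gm14403 had no such partner, and their values stood as measured singly.

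Within a genotype, the members moved together weakly. Over the 9 libraries, after the group means were taken off, 14 of 15 pairs of members had a positive Pearson correlation, with a median of 0.29 and a range of -0.02 to 0.67. The highest was that of Gm14434 and Gm2026 (r = 0.67, and 0.75 without replicate 10), which share their coding sequence. The lowest was that of the neighbours Gm14393 and Gm14443 (r = -0.02, and -0.37 without replicate 10). These correlations come from libraries that share depth and scaling, and are a description.

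The gene most like each member over all 9 libraries, by Pearson r of log2(CPM + 0.1), lay on chromosome 7 for 4 of the 6. For Gm14393 it was the zinc-finger gene Zfp772 (r = 0.969), with 6.78 to 10.1 CPM in KO against 11.3 to 15.4 CPM in WT. For Gm14443 it was Vmn2r29 (r = 0.982), a vomeronasal receptor gene, at 2.67 to 5.16 CPM and 10.5 to 12.8 CPM. For Gm2026 it was Zfp28 (r = 0.966), with 23.9 to 26.7 CPM in KO against 17.4 to 19.8 CPM in WT, and for Gm14403 it was Zfp667 (r = 0.949), at up to 32.8 CPM in KO beside 26.1 to 28.4 CPM in WT. These 4 genes, 3 of them with zinc fingers, lie within 0.992 Mb (chr7:6286579-7278289). For Gm14410 it was Hmgb1 (r = 0.970), a chromatin protein, and for Gm14434 it was Gm2026 (r = 0.953). The difference between genotypes is part of each r. With the group means taken off, r was 0.63 to 0.84 for the 6 pairs. Each partner was picked for the highest r over these same libraries, which raises these values too. No background was computed for them or for the share on chromosome 7, so nothing is read from either.

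The machinery that KRAB zinc-finger proteins work through was measured beside the members. Whether the members encode a KRAB domain was not examined. Of 43 co-repressor and heterochromatin genes, 40 were in the table, and 0 passed an adjusted p under 0.05 by limma with a trend or by limma-voom, where 0.286% of all genes did. At an unadjusted p under 0.05 there was 1, Ehmt1, a histone methyltransferase gene named after its value was seen, with 80.1 to 108 CPM in KO against 57.9 to 78.9 CPM in WT (log2 0.47, SE 0.12, adjusted p = 0.279 by limma). Their median log2 difference was 0.05. Trim28 measured 106, 112, 105, 101 and 166 CPM across the KO libraries. The WT libraries gave 113, 102, 120 and 105 CPM. Replicate 10 alone stood above the others, and the log2 difference was 0.08 (SE 0.13, adjusted p = 0.930 by limma). Setdb1 ranged from 56.3 to 63.7 CPM in KO against 51.8 to 61.9 CPM in WT, a log2 difference of 0.04 (SE 0.07, adjusted p = 0.935 by limma).

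Zinc-finger genes elsewhere in the genome were compared in the same fit. Of 529 genes with 3 or more finger motifs outside the window, 1 rose and 1 fell at an adjusted p under 0.05 by limma, beside 0.139% and 0.146% of all genes. Zfp955b rose, from 46.4 to 51.7 CPM in WT to 58.9 to 73.2 CPM in KO (log2 0.44, SE 0.08, adjusted p = 0.0468 by limma). Zfp955b (chr17:33289544-33307241) lies on the chromosome of the targeted gene Clic1 (chr17:35049966-35058749). The part of this position in its difference was not tested. Zfp459 fell, from 2.75 to 4.12 CPM in WT to 0.264 to 1.06 CPM in KO (log2 -2.32, SE 0.36, adjusted p = 0.0187 by limma). Their median log2 difference was -0.03, with 225 positive and 304 negative. Both calls were lost in some fits with 1 library left out, that of Zfp955b without KO replicate 4, 6 or 8 or any WT library and that of Zfp459 without KO replicate 6 or any WT library. The adjusted p by limma ran from 0.00879 to 0.233 for Zfp955b and from 0.00803 to 0.120 for Zfp459 when each library was left out.

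Depth and tissue makeup differed somewhat between libraries. Steps between the lowest values gave approximate totals of 5.45 to 20.2 M reads for KO and 7.25 to 11 M reads for WT, and the highest was that of replicate 10 (at most 7.77 M in the rest of the KO group). A single read was then worth 0.0494 to 0.184 CPM, so Gm14443 in KO rested on few reads and counting error weighs most there. All 12 hypothalamic neuron markers looked for were measured, whereas 1 of 8 fat cell markers was (Lipe), although a protocol label names adipose tissue. The summed hypothalamic markers were 729 to 880 CPM in KO against 663 to 712 CPM in WT, without overlap, and 1 of the 12 passed, Avp (189 to 255 against 96.0 to 123 CPM, log2 0.90, SE 0.10, adjusted p = 0.00270 by limma). Of the 12 markers 6 had a positive and 6 a negative log2 difference (median 0.01), and the 11 without Avp summed to 540 to 668 CPM in KO against 541 to 609 CPM in WT, with overlap. The 5 measured thalamic markers summed to 518 to 620 CPM in KO against 614 to 649 CPM in WT. The 5 oligodendrocyte markers summed to 3206 to 3723 and 3507 to 4315 CPM, the 5 microglial markers to 134 to 158 and 146 to 182 CPM, and the 5 astrocyte markers to 1531 to 2033 and 1555 to 1794 CPM. Striatal (6 measured) and choroid plexus markers (3 of 6) overlapped too, at 98.6 to 118 and 110 to 122 CPM, and at 36.8 to 49.7 and 31.9 to 45.7 CPM. Of 5 blood markers 1, Alas2, was in the table, at 9.79 to 13.4 and 7.58 to 10.3 CPM. The part of tissue makeup in the members' differences was not tested.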

How the data were processed

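RNA of 9 hypothalamus libraries was analysed. Per the labels and the study's methods, the authors checked reads with FastQC 0.11.8, trimmed them with Trimmomatic 0.38, aligned them to GRCm38.p6 with STAR 2.5.1a and estimated gene counts with RSEM 1.3.0, which divides reads that fit several copies. Genes of low CPM were dropped, and libraries were scaled by TMM. The deposited signal is this normalized CPM. Besides the 9 columns used, 1 column of values fitted no sample and was left out. A further deposited table holds the authors' comparison (fold changes and p-values), from which symbols and identifiers alone were taken.

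Values were fitted as log2(CPM + 0.1) with limma 3.58.1 in R 4.3.3 (trended eBayes, genotype as the only factor, Benjamini-Hochberg adjustment over 14351 genes, threshold 0.05). The fit was tested on simulated data. Standard errors of single genes come from this fit, and those of sums from the pooled spread of the log2 sums. Positions, transcripts and coding sequences came from GENCODE M21, upstream sequences from RefSeq. The authors counted on Ensembl release 98, so transcript models may differ. Finger motifs were searched as C, 2 to 4 residues, C, 12 residues, H, 3 to 5 residues, H. Transcripts of at least 1000 bases were compared with BLAST 2.17.0, coding sequences with MAFFT 7.526. Of the CPM values up to 2.5, 81.3% to 86.5% per library were within 0.03 reads of a whole read, so depths are approximate and limma-voom on such estimated counts served only as an alternative.

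The members and lists were chosen with earlier results of these data known. Named were the members, window genes past the threshold, near-identical measured partners, the 3 other cluster zinc-finger genes of highest mean CPM, Trim28, Setdb1 and co-repressors past the threshold, zinc-finger genes elsewhere past it, the gene most like each member, and Clic1. Gnas, Phactr3, Zfp970, Zfp967, Ehmt1, Avp, Alas2, Lipe, Gm14288, Gm14440 and the genes around Zfp772 were named in addition, after their values were seen. As alternatives the pseudocount, the filter, the scaling, the variance model, library weights, the placement of replicate 10, the window and the counting of copies were varied, and each library was left out. The summing of genes that share windows was added after seeing the data, as was the choice of zinc-finger genes elsewhere by symbol.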

Additional observations from a re-analysis of the deposited data

Results flagged for a closer look

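Of 78 groups of 4 or 5 libraries looked at, 3 held a library far from the rest, where chance gives about 1 in 20. Gm14434 measured 264 CPM in KO replicate 10, while the rest of the KO group lay between 243 and 247 CPM. Trim28 measured 166 CPM in the same library, while the rest lay between 101 and 112 CPM. Gm14295 measured 12.5 CPM in WT replicate 3, while the rest of the WT group lay between 10.3 and 10.7 CPM. Replicate 10 is the library with conflicting labels and the largest estimated depth, and the part of either in its values was not tested.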

How the results depend on the processing

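The members kept their direction in 113 of 114 alternatives. The exception was Gm14393 when genes sharing windows were summed (0.32), since the other 12 genes of that sum carry most of its RNA. That summing also gave 0.32 for Gm14434, Gm2026 and Gm14410, and summing near-identical transcripts gave 0.35 for Gm2026 and Gm14410. With replicate 10 as WT, the differences were -1.89 (Gm14443), 0.31 (Gm14434), 0.41 (Gm2026), 0.49 (Gm14410), 0.87 (Gm14403) and 0.27 for the summed members, and a pseudocount of 1 gave -1.99 for Gm14443. With each library left out, the summed members ranged from 0.33 to 0.43.

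Counts of calls moved more. Beside 41 genes in the whole table there were 27 when low genes (mean under 5 CPM) were dropped, 135 with library weights, 5 with replicate 10 as WT, and 18 to 87 with each library left out. The 87 came without KO replicate 10, the 18 without WT replicate 1, and omitting KO replicates 6 and 8 or WT replicates 3, 9 and 11 gave 27, 25, 19, 24 and 22. Of the other cluster zinc-finger genes, 4 passed with library weights and 0 to 4 with each library left out, the 4 without KO replicate 10. Of the co-repressors, 1 passed with library weights. Of the zinc-finger genes elsewhere (2 calls), 0 passed when low genes were dropped, 1 without the trend, 6 with library weights, 1 by limma-voom on estimated counts, 1 with replicate 10 as WT, and 0 to 6 with each library left out, the 6 without KO replicate 10 and 0 without KO replicate 6 or any 1 WT library. The cause was not tested. No paired analysis was possible because the KO and WT libraries share no replicate numbers.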

Other observations

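The stretch of chromosome 7 that holds 4 of the 6 most-like genes is itself a zinc-finger cluster. On chr7:6286579-7278289 (GRCm38) the table held 16 genes, 11 of them with 3 or more finger motifs. Their median log2 difference, KO minus WT, was 0.02, with 9 positive and 7 negative, so the stretch as a whole did not lean to 1 side. At its distal end, 3 neighbouring rows were lower in each KO library than in each WT library. These were Zfp772 (log2 -0.76, SE 0.15) and 2 identifiers that both carry the symbol Vmn2r29. The first Vmn2r29 row ranged from 2.67 to 5.16 CPM in KO against 10.5 to 12.8 CPM in WT (log2 -1.66, SE 0.19), and the second from 1.17 to 3.56 CPM against 3.80 to 4.92 CPM (log2 -1.11, SE 0.27). Toward the centromere, Zfp28 (log2 0.42, SE 0.08) and Zfp667 (log2 0.21, SE 0.07) were higher in each KO library. Peg3, an imprinted zinc-finger gene distal to both, ranged from 2612 to 3714 CPM in KO against 2425 to 2787 CPM in WT (log2 0.13, SE 0.10). Over all genes, KO libraries lay wholly below WT libraries in 1.74% and wholly above in 1.67%. Sequence shared by the 2 Vmn2r29 rows was not examined, so they may not be separate. As on chromosome 2, adjacent lower genes lay in the same cluster as higher ones. That was fixed in advance here, because the stretch was bounded by genes most like members of both directions. No test is given, and nothing is read from it.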
